A study of Mus musculus with 2 samples.

Results

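Ribosomal proteins of the cytosol and of mitochondria are described here in macrophages whose Tipe1 gene was deleted in myeloid cells. The set held 160 of the 46095 genes in the count table, taken by symbol alone. It consisted of 83 cytosolic genes (Rpl, Rps, Rplp0 to Rplp2 and Rpsa symbols) and 77 mitochondrial genes (Mrpl and Mrps symbols). By symbol, 51 of the cytosolic genes belong to the large subunit and 32 to the small one, and 48 and 29 of the mitochondrial genes. Marrow cells of C57BL/6 mice were cultured for 5 days with M-CSF at 100 ng/ml, the growth factor that turns marrow progenitors into macrophages. The TIPE1-KO library came from LyzM-Cre; Tipe1 f/f mice and carries the genotype label TIPE1-/-. The WT library is labelled wild type, and the series describes its mice as Tipe1 f/f without Cre, so both groups share the floxed allele. LyzM-Cre is expressed from the Lyz2 locus, a gene of macrophages, monocytes and neutrophils. The number and age of the animals and the floxed exons were not given in the sources used here. There was 1 library per genotype, called the KO library and the WT library below, with 15815956 and 11782664 counted reads. No difference has a replicate check, no p-value can be given, and the intervals in parentheses are exact 95% intervals of the counts except where stated, which cover counting error only.

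The cytosolic ribosome translates the messenger RNAs made in the nucleus. Mitochondrial ribosomes are separate machines inside the organelle that translate the few respiratory chain subunits encoded by mitochondrial DNA, and all of their proteins are encoded in the nucleus and imported. Messages of cytosolic ribosomal proteins usually start with a run of pyrimidines, through which mTOR and Larp1 control their translation. The protein-coding genes of the cytosolic set have left many processed pseudogenes (intronless copies made from messenger RNA) in mammalian genomes.

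Tnfaip8l1, which encodes TIPE1, had 3 reads in the KO library, against 21 in the WT library. Macrophage markers were abundant in both libraries, at a summed 21045 CPM in the KO library, against 26788 CPM in the WT library over 12 genes. CPM are reads per 1e6 on library sizes scaled by TMM. Markers of other cells moved with the genotype: all 10 stromal markers (such as Col1a1) had fewer reads after deletion, and they summed to 157 CPM in the KO library, against 1814 CPM in the WT library. The 7 neutrophil markers summed to 492 CPM in the KO library, against 673 CPM in the WT library, and 5 B cell markers to 2.46 (KO) and 12.6 (WT) CPM. T and NK cell markers summed to 5.25 (KO) and 4.97 (WT) CPM, and erythroid markers had 1 read in the KO library, against 4 in the WT library. The part of these other cells in the results below was not tested. In such bulk libraries, fewer cells of a type and less RNA per cell cannot be told apart.

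The sequence that carries the main exception in the set is shown first. Rpl29 (GRCm38 chromosome 9, 106429454 to 106431568, plus strand, protein-coding), a protein on the surface of the large subunit, shares its coding sequence with processed pseudogenes that differ from it at very few bases. Below are coding positions 42 to 102 from GENCODE M21 transcripts, counted from the first base of the coding sequence, of Rpl29, of a copy with the same base at position 72 (Gm6344, chromosome 13), and of a copy with another base there (Gm13841, chromosome 5). The capital letter marks position 72.
Rpl29: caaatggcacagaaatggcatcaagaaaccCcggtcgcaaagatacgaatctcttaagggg
Gm6344: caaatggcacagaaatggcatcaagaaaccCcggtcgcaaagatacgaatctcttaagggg
Gm13841: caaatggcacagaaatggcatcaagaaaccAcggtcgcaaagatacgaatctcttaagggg

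Both sets had median ratios close to 1 between the genotypes. Of the 160 genes, 154 averaged 1 CPM or more and were tested, 78 cytosolic and 76 mitochondrial. The log2 ratio of KO over WT, taken after adding 0.5 CPM to both values, had a median of 0.03 in the cytosolic set and 0.03 in the mitochondrial set, beside 0.01 over all 12495 tested genes. The quartiles were -0.07 and 0.10 in the cytosolic set, -0.08 and 0.16 in the mitochondrial set, and -0.18 and 0.19 over all tested genes. The cytosolic median minus the mitochondrial median was -0.00015. Scaled by total counts instead of TMM, the medians were -0.05 and -0.04 and that of all tested genes -0.06, so the sign of either median depends on the scaling and its place beside the other genes does not.

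Most members lay within a narrow band. In the cytosolic set 68 of 78 genes (87.2%), and in the mitochondrial set 61 of 76 (80.3%), were within 1.2-fold on the log2 scale, against 60.8% of all tested genes. Among all genes that averaged 10 CPM or more, which count more precisely, 72.8% were within 1.2-fold, against 63 of 66 cytosolic genes (95.5%) and 52 of 64 mitochondrial genes (81.2%) above that level. A member was called when its CPM ratio was at least 1.5-fold from 1 and the interval excluded 1. By that call 1 cytosolic gene was higher in the KO library (Rpl29) and 1 was lower (Rpl13), and no mitochondrial gene was called. The same call took 6.47% of all tested genes as higher and 7.23% as lower. The counts in the set are below those shares.

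At a call of 1.2-fold, 3 cytosolic genes were higher (Rpl29, Rpl28 and Rpl37a) and 1 was lower (Rpl13), beside 14.3% and 13.1% of all tested genes. In the mitochondrial set 7 of 76 genes were higher and 4 were lower by that call. No member of the cytosolic small subunit was called at 1.2-fold in either direction. Of the 47 tested large-subunit genes of the mitochondrial set, 6 were higher (12.8%) and 1 was lower (2.13%). Of its 29 small-subunit genes by symbol, which include Mrps30 of the large subunit, 1 was higher (3.45%) and 3 were lower (10.3%). Each of these shares was below that of all tested genes in the same direction. Among genes averaging 10 CPM or more the background was 15.8% higher and 10.3% lower, and in the mitochondrial set 10.9% and 4.69%.

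**Figure D1:**
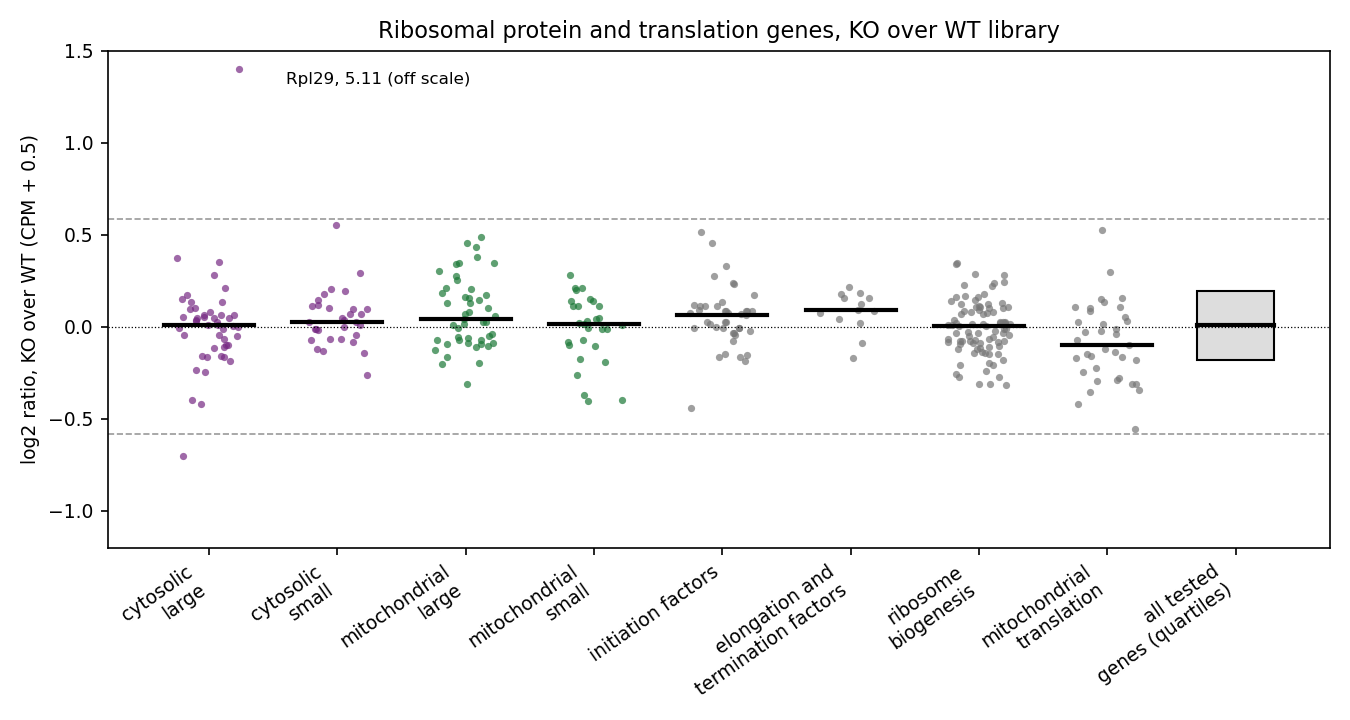
Log2 ratio of KO over WT (after adding 0.5 CPM) for each tested gene, by subunit and by translation list, with the median of each group as a black bar and the quartiles of all 12495 tested genes as a grey box. Dashed lines are 1.5-fold. The cytosolic and mitochondrial subunits centre on 0, with Rpl29 off the scale at 5.11.

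Summed reads gave the same picture. The cytosolic genes together had 184162 reads in the KO library, against 142879 in the WT library, 1.16% (KO) and 1.21% (WT) of all counted reads. On the TMM scale that is 11936 CPM in the KO library, against 11830 CPM in the WT library, a ratio of 1.009 (1.002 to 1.016). Without Rpl29 the ratio was 1.005 (0.998 to 1.012), and the share of raw counts was lower in the KO library, so no direction can be given for the cytosolic sum. The mitochondrial genes had 23104 reads in the KO library, against 17471 in the WT library, 0.146% (KO) and 0.148% (WT) of all counted reads, and 1497 (KO) against 1447 (WT) CPM. Their CPM ratio was 1.04 (1.02 to 1.06), while their share of raw counts was slightly lower in the KO library, so the direction of this small difference turns with the scaling as well.

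Ratios taken inside each library do not depend on the scaling. There were 7.97 cytosolic reads per mitochondrial read in the KO library, against 8.18 in the WT library, which is 0.975 times as many in the KO library (0.955 to 0.995). The intervals of these quotients are a normal approximation on the log scale. The large-to-small ratio of summed reads in the cytosolic set was 1.35 in the KO library, against 1.34 in the WT library, with a quotient of 1.01 (0.994 to 1.02). In the mitochondrial set, with subunits taken by symbol, the large-to-small ratio was 2.04 in the KO library, against 1.92 in the WT library. Its quotient was 1.06 (1.02 to 1.10). These differences of a few percent exceed counting error in the mitochondrial set and in the comparison of both sets, and the spread between cultures of 1 genotype is unknown.

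**Figure D2:**
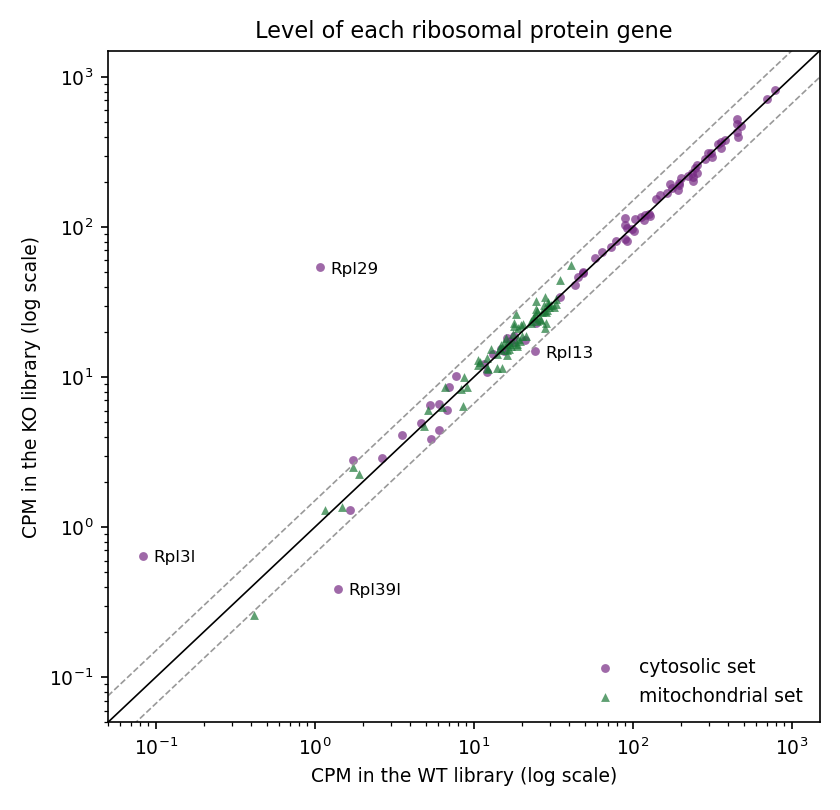
CPM of each member with at least 1 read in both libraries, KO library on the vertical axis and WT library on the horizontal axis, both on log scales. The solid line is equality and the dashed lines are 1.5-fold. Members lie along the line of equality over the whole range of levels, and Rpl29 stands apart, with Rpl3l and Rpl39l at a few reads.

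The members' own rows differed from each other by more than counting error. The part of this spread that came from how reads were divided between genes and pseudogene copies was not tested. In the 65 cytosolic genes with at least 100 reads in both libraries, the SD of the log2 ratio across genes was 0.14, against 0.07 for counting error alone. Intervals of 22 of these 65 genes excluded the pooled ratio of the set without Rpl29 (1.005), 10 above it and 12 below it. In the 67 mitochondrial genes with that many reads the SD was 0.19 against 0.13 for counting error, and 11 intervals excluded the pooled ratio, 7 above and 4 below. These are 33.8% of the cytosolic and 16.4% of the mitochondrial genes. Taken from the median ratio of all genes, 45.0% of all 8652 genes with that many reads were apart in the same way, with an SD of 0.35. Between the quartiles of CPM of the cytosolic set, 13 of its 33 genes there (39.4%) were apart, against 55.1% of all genes at that level. Between those of the mitochondrial set, 5 of 33 genes (15.2%) were apart, against 31.3%. In both ranges the share of members apart was below that of all genes.

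Among cytosolic genes averaging 10 CPM or more, the highest ratios after Rpl29 belonged to members of both subunits. Rpl37a, a small zinc-binding protein of the large subunit, had 1764 reads in the KO library, against 1082 in the WT library, 114 (KO) against 89.6 (WT) CPM and a ratio of 1.28 (1.18 to 1.38). Rplp1, which with Rplp0 and Rplp2 forms the stalk that receives elongation factors, had 525 CPM in the KO library, against 454 CPM in the WT library, a ratio of 1.16 (1.117 to 1.196). Rps19, which is needed to mature the small subunit and is mutated in human Diamond-Blackfan anaemia, had 104 (KO) against 89.9 (WT) CPM, a ratio of 1.16 (1.07 to 1.25). Rps15a of the small subunit had 194 (KO) against 172 (WT) CPM, a ratio of 1.13 (1.070 to 1.197). All of these genes except Rpl37a were within 1.2-fold.

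Rpl13 was the lowest tested cytosolic gene. Rpl13 (GRCm38 chromosome 8, 123102350 to 123105244), a protein of the large subunit, had 229 reads in the KO library, against 295 in the WT library, 14.8 (KO) against 24.4 (WT) CPM, and was 1.65-fold lower in the KO library (1.380 to 1.964). Rpl13 had no stretch of 50 coding bases that is absent from pseudogenes. Its copy Gm12918, identical over the coding sequence, had 358 reads in the KO library, against 290 in the WT library, and Gm15710 had 177 (KO) and 135 (WT). The gene and its copies together had 779 reads in the KO library, against 734 in the WT library, a ratio of 0.831 (0.750 to 0.920), and the 1.5-fold call was lost.

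Other low members of the large subunit moved by less. Rpl13a, a large-subunit protein that also takes part in silencing inflammatory messages in human monocytes, had 202 CPM in the KO library, against 240 CPM in the WT library, a log2 ratio of -0.25. Rpl7 had 401 (KO) against 456 (WT) CPM, a log2 ratio of -0.18, and Rpl34 had 81.4 (KO) against 91.4 (WT) CPM, a log2 ratio of -0.17. The intervals of these genes lay below 1, and their ratios were within 1.2-fold. Rpl27a had 17.8 CPM in the KO library, against 21.0 CPM in the WT library, with an interval of the ratio from 0.709 to 1.01. Its own row held few reads, and its identical copy Gm7536 had 1057 reads in the KO library, against 733 in the WT library, and together with its copies the ratio was 1.06 (0.973 to 1.14).

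On their own rows, cytosolic members with known work outside the ribosome were within 1.2-fold. Rpl5 and Rpl11, which bind Mdm2 when ribosome assembly fails and so stabilise p53, had 22.8 and 83.3 CPM in the KO library, against 24.7 and 89.4 CPM in the WT library. Rpl22, which is needed for T cell development in mice, had 119 (KO) against 129 (WT) CPM, a ratio of 0.922 (0.861 to 0.987). Rps3, which also acts in DNA repair, had 380 (KO) against 381 (WT) CPM. Rps6, the target of the S6 kinases, had 17.3 (KO) against 17.0 (WT) CPM. Of the own rows of these 5 genes, only that of Rpl22 had an interval that excluded 1. Most reads of Rpl5, Rpl11 and Rps6 were counted on pseudogene copies. Gm15500, the identical copy of Rpl5, had a ratio of 0.905 (0.823 to 0.996). The ratio was 0.999 (0.926 to 1.08) for Gm10288, a copy of Rpl11, and 1.09 (0.944 to 1.26) for Gm11263, a copy of Rps6.

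The rows of the related gene pairs in the set differed widely in level. Rps27l, a p53-responsive relative of Rps27, had 34.4 CPM in the KO library, against 34.8 CPM in the WT library. The row of Rps27 itself had 2.92 (KO) and 2.65 (WT) CPM. Rps27rt, whose symbol falls outside the rule, had 20.1 (KO) against 24.5 (WT) CPM. The copy Rps27-ps2 had 37 (KO) and 13 (WT) reads. Whether reads of Rps27 were counted on these rows was not tested. Rpl3 had 168 (KO) against 165 (WT) CPM, and its striated-muscle relative Rpl3l had 10 reads in the KO library, against 1 in the WT library, a ratio of 7.83 (1.11 to 340). Rpl39 on the X chromosome had 68.7 (KO) against 64.2 (WT) CPM, and its testis relative Rpl39l had 6 reads in the KO library, against 17 in the WT library. Rpl10, also X-linked, had 155 (KO) against 139 (WT) CPM, and its testis relative Rpl10l had no read in either library, which allows up to 0.194 CPM in the KO library, against 0.248 CPM in the WT library. The relatives Rpl3l, Rpl39l and Rpl10l were below the filter, as were Rpl32l, Rps4l and Mrpl40.

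**Figure D3:**
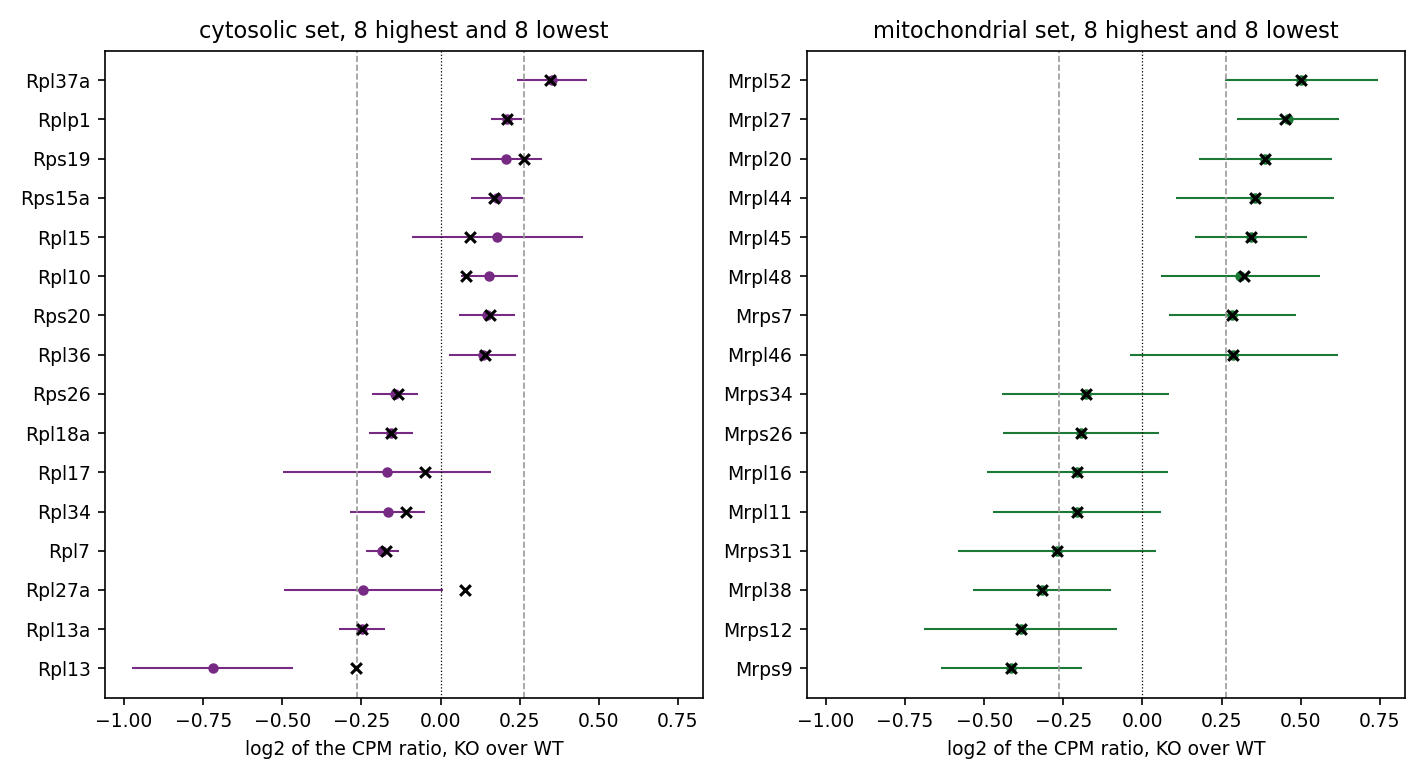
Log2 of the CPM ratio (KO over WT, nothing added) for the 8 highest and 8 lowest members of each set among those averaging 10 CPM or more, without Rpl29, as points with exact 95% counting intervals. Crosses give the ratio of the gene plus its pseudogene copies and dashed lines are 1.2-fold. Crosses leave the points most for Rpl13 and Rpl27a and lie on or near the points of the mitochondrial set.

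Among mitochondrial genes averaging 10 CPM or more, the 5 highest ratios were in the large subunit. Mrpl52 had 405 reads in the KO library, against 224 in the WT library, 26.2 (KO) against 18.5 (WT) CPM and a ratio of 1.42 (1.199 to 1.674). Mrpl27, the counterpart of the bacterial protein L27 near the catalytic centre, had 866 reads in the KO library, against 493 in the WT library, 56.1 (KO) against 40.8 (WT) CPM and a ratio of 1.38 (1.23 to 1.54). Mrpl20 had 32.3 (KO) against 24.7 (WT) CPM, a ratio of 1.31 (1.13 to 1.51). Mrpl44, which carries a ribonuclease-like fold, and Mrpl45, which lies at the exit of the peptide tunnel, both had a ratio near these, at 1.28 and 1.27. No ratio of this set reached 1.5-fold.

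Of the 5 lowest mitochondrial ratios at that level, 3 were in the small subunit. Mrps9 had 326 reads in the KO library, against 340 in the WT library, 21.1 (KO) against 28.2 (WT) CPM, and was 1.33-fold lower in the KO library (1.14 to 1.56). Mrps12, which lies at the decoding centre, had 11.6 (KO) against 15.2 (WT) CPM and was 1.31-fold lower (1.06 to 1.61). Mrpl38 had 22.9 (KO) against 28.6 (WT) CPM and was 1.25-fold lower (1.07 to 1.45). For Mrps31, at 11.6 (KO) against 13.99 (WT) CPM, and Mrpl11, at 16.3 (KO) against 18.8 (WT) CPM, the intervals included 1. At 1.2-fold Mrps6 was called lower as well, and Mrps7 and Mrpl48 were called higher.

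On their own rows, mitochondrial members with other roles or relatives were within 1.2-fold. Mrpl12, which also binds the mitochondrial RNA polymerase, had 33.1 CPM in the KO library, against 32.9 CPM in the WT library. Mrps30 had 23.1 (KO) against 22.9 (WT) CPM, although it is named for the small subunit and sits in the large one. The relatives Mrps18a and Mrps18c had 31.5 and 19.5 CPM in the KO library, against 29.1 and 17.6 CPM in the WT library. The row of Mrps18b had 1.36 (KO) against 1.49 (WT) CPM, but most reads of this gene were counted on copies. Its copy Gm13552 had 69 reads in the KO library, against 38 in the WT library, a ratio of 1.42 (0.943 to 2.17). Split by evolutionary origin, the 46 genes with a bacterial counterpart had a median log2 ratio of 0.03, and the 30 tested genes specific to mitochondria had 0.01.

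Expression per length is the scale on which members can be compared with each other. On CPM per kilobase of the chosen transcript, the cytosolic set had a median of 124 and the mitochondrial set of 14.01, averaged over both libraries. Rplp1 was the highest cytosolic gene, at 1053 CPM per kilobase in the KO library, against 911 in the WT library, followed by Rps15, which human cells need to export the small subunit from the nucleus, and by Rplp0. Rps15 had 622 (KO) against 594 (WT) CPM per kilobase and Rplp0 601 (KO) against 575 (WT), and both small differences changed sign when libraries were scaled by total counts. In the mitochondrial set Mrps21 was the highest, at 74.6 (KO) against 75.2 (WT) CPM per kilobase, followed by Mrpl27 and Mrpl52.

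Proteins that mostly stand in the ribosome in equal number had very unequal counts. The level of the 78 tested cytosolic genes ran from 3.84 to 982 CPM per kilobase, and the upper quartile was 12.6 times the lower. Those at the bottom were among the genes whose coding sequence is repeated elsewhere. Rps13 had 43 reads in the KO library, against 21 in the WT library, whereas its copies Rps13-ps1 and Rps13-ps2 had 718 and 166 reads in the KO library, against 587 and 161 in the WT library. Rps28 had 20 reads in each library, and its identical copy Gm10443 had 1102 in the KO library, against 934 in the WT library. Rps29 had 64 (KO) against 43 (WT) reads, and its identical copy Gm14303 had 1119 (KO) against 933 (WT).

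Pseudogene copies of the cytosolic set held 19.3% of the reads on genes and copies together in the KO library, against 19.4% in the WT library. Whether these reads came from the genes or from transcribed copies was not tested. By sequence match or name, 76 of the 78 tested cytosolic genes had annotated pseudogene copies, 1759 in all, of which 1015 had a row in the table. All copies of the set together had 44131 reads in the KO library, against 34497 in the WT library, a CPM ratio of 1.001 (0.987 to 1.016). For 25 cytosolic genes most of the reads were counted on copies and not on the gene. Only 9.82% of the 50-base windows of a cytosolic coding sequence (median over genes) were absent from every annotated pseudogene transcript, and 26 genes had no such window. In the mitochondrial set 31 of 76 genes had copies, 68 in all, and 50 genes had all windows unique.

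Adding the copies drew the cytosolic levels together. The range became 6.10 to 984 CPM per kilobase and the upper quartile was 3.35 times the lower. Across the 78 genes the level of the gene alone was higher with a larger share of unique windows (Spearman's rho 0.53), and less so for gene plus copies (0.36), as a description over genes that share both libraries. In the mitochondrial set rho was 0.06 over 76 genes. The difference between the genotypes stayed small on this scale, with a cytosolic median log2 ratio of -0.01. With copies, 3 cytosolic genes were higher by at least 1.2-fold (Rpl29, Rpl37a and Rps19) and Rpl13 was lower. These are 3.85% and 1.28%, below the 14.3% and 13.1% of all tested genes, taken without copies. Rpl28, which was higher alone, had a ratio of 1.03 (0.910 to 1.16) with copies.

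**Figure D4:**
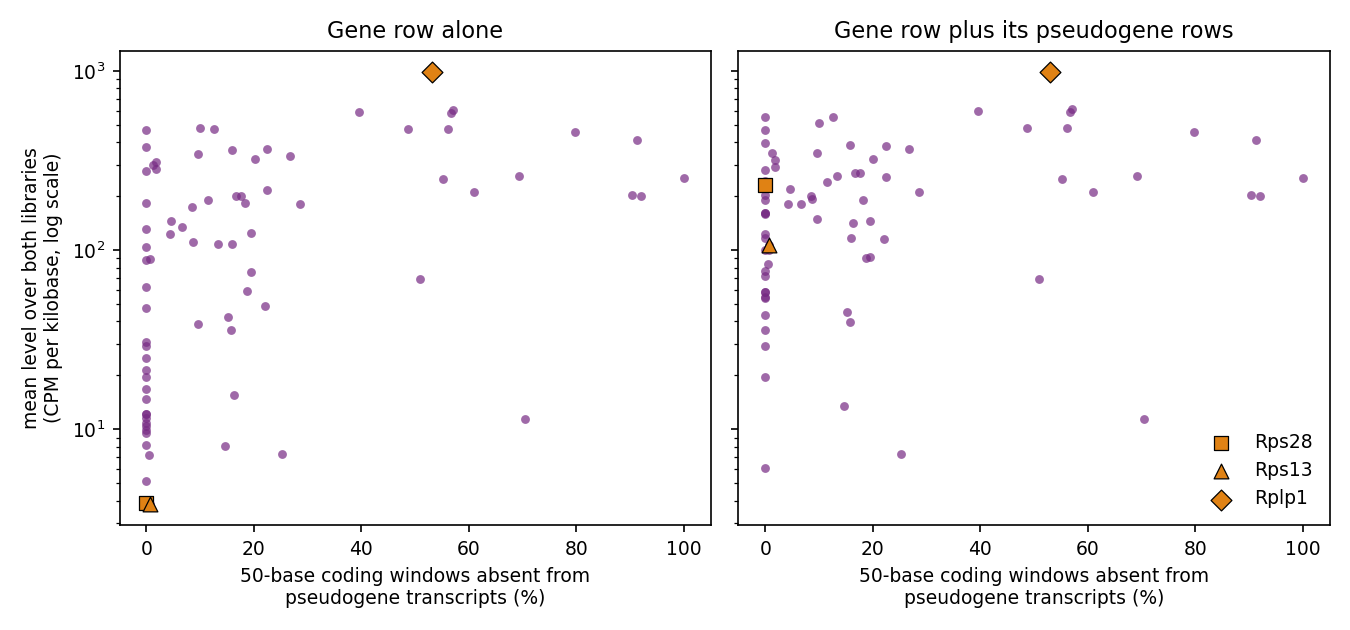
Mean level over both libraries in CPM per kilobase (log scale) of the 78 tested cytosolic genes against the percent of 50-base coding windows absent from annotated pseudogenes, for the gene alone (left) and with its pseudogene copies added (right). Rps28 and Rps13 lie at the bottom of the left panel and among the other genes in the right panel.

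Rpl29 was the only tested member called at 2-fold, and none was lower by that call, beside 2.59% and 4.78% of all tested genes as higher and lower. It had 832 reads in the KO library, against 13 in the WT library, 53.9 (KO) against 1.08 (WT) CPM, and was 50.1-fold higher in the KO library (29.1 to 94.5). This is the ratio of the row: a difference in the level of Rpl29 and a difference in which row its reads were assigned to cannot be told apart here. Of its 5 closest copies, Gm6344 had 268 reads in the KO library, against 2 in the WT library, Gm10709 had 84 (KO) and 1 (WT), and Gm5561 had 22 (KO) and 3 (WT). Gm13841 went the other way, with 646 reads in the KO library, against 852 in the WT library, as did Gm8210, with 41 (KO) and 62 (WT). Hence rows of near-identical sequence, spread over chromosomes 1, 5, 9 and 13, moved in opposite directions.

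The direction followed the base at coding position 72, a grouping made after these counts were seen. Gm13841 and Gm8210 differ from the coding sequence of Rpl29 by C72A, C300T and T423C. Gm6344 carries C300T, T423C and G454A, Gm10709 carries G205A, C300T, T423C and G457A, and Gm5561 has 8 differences, of which none is at position 72. In each token the base of Rpl29 comes first, then the coding position, then the base of the copy, and bases are those of the annotation and not read from these libraries. Over the 5 copies C72A was the difference that separated the rows. The 4 rows with the base of Rpl29 at position 72 had 1206 reads in the KO library, against 19 in the WT library, a ratio of 49.7 (31.7 to 82.8). The rows with C72A had 687 reads in the KO library, against 914 in the WT library, 1.70-fold lower in the KO library.

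All 6 rows together differed far less. They had 1893 reads in the KO library, against 933 in the WT library, a ratio of 1.59 (1.47 to 1.72). With every annotated copy, Rpl29 had 1984 reads in the KO library, against 1002 in the WT library, a ratio of 1.55 (1.44 to 1.67), which was still the highest of the cytosolic set. In the WT library 914 of the 933 reads lay on the rows with C72A, and in the KO library 687 of 1893. Why the reads were divided in this way was not tested, nor whether the animals differed in sequence at position 72. Within 500 kb of Rpl29, 17 other tested genes had a median log2 ratio of 0.16. Of these, 2 were higher and 1 was lower by at least 1.5-fold, beside 6.47% and 7.23% of all tested genes. The higher ones were Alas1, at 240 (KO) against 62.3 (WT) CPM, and Abhd14b, at 6.48 (KO) against 3.73 (WT) CPM. The lower one, Acy1, had 11 reads in the KO library, against 23 in the WT library.

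**Figure D5:**
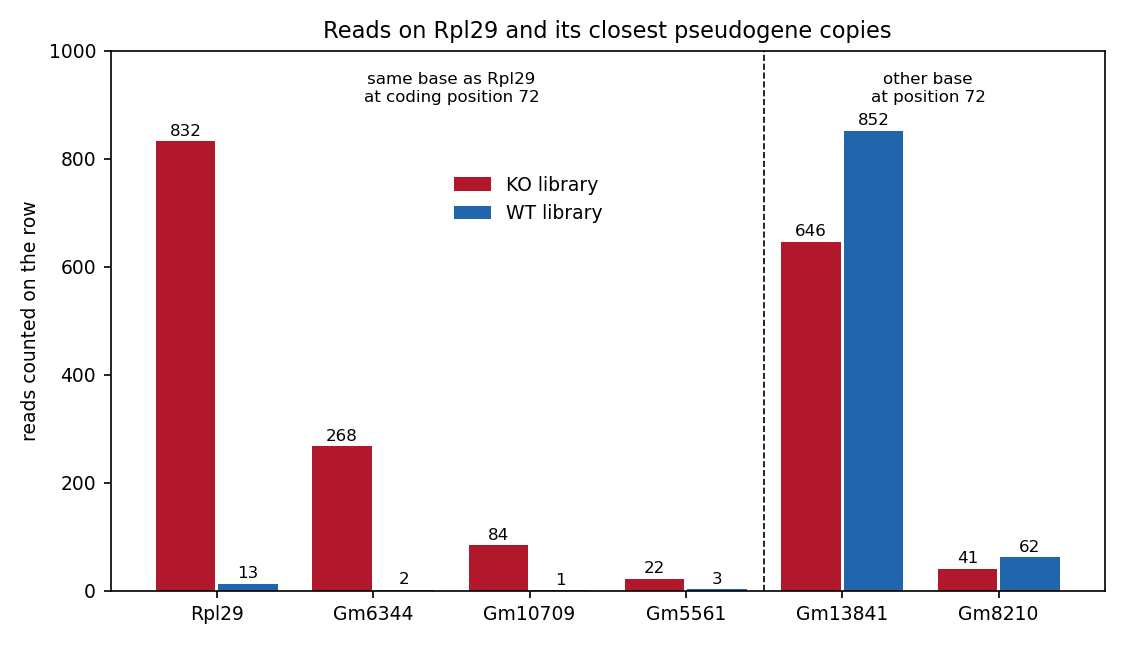
Reads on Rpl29 and on its 5 closest pseudogene copies in the KO library (red, left bar) and the WT library (blue, right bar). Left of the dashed line are the 4 rows with the base of Rpl29 at coding position 72, which sum to 1206 (KO) and 19 (WT) reads, and right of it the rows with another base, which sum to 687 (KO) and 914 (WT).

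The start regions of both sets share sequence features. RefSeq promoters (GRCm38.p6, 250 bases before to 50 after the start) matched 61 cytosolic and 68 mitochondrial genes by symbol. The ETS motif CCGGAAG, searched on both strands, was present in 41.0% of cytosolic and 36.8% of mitochondrial genes, against 9.93% of all 27025 genes with a promoter. Those 27025 genes were taken whether or not they were expressed here, and no comparison with expressed genes alone was made. A run of at least 5 pyrimidines after a C, starting within 10 bases of the start on the transcribed strand, was found in 55.7% of cytosolic, 23.5% of mitochondrial and 21.9% of all genes. The YY1 motif AAGATGGCG was found in 4.92%, 11.8% and 1.64% of cytosolic, mitochondrial and all genes. In the same order, TATAAA was found in 11.5%, 7.35% and 15.7%, and the E-box CACGTG in 9.84%, 7.35% and 8.09%. The last 3 letters of the ETS motif are the first 3 of the YY1 motif, so a match of both can overlap.

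The ETS match is shown, in capitals, for the mitochondrial genes with the highest ratios and for a pair of cytosolic genes whose ratio was near 1. Each line gives a window of 30 bases upstream of the start, on the gene's strand, where CTTCCGG is the match read on the other strand. On GRCm38.p6 the windows are Mrpl52 at chr14:54426851-54426880 (+), Mrpl27 at chr11:94653725-94653754 (+), Rpl19 at chr11:98026660-98026689 (+) and Rps6 at chr4:86857440-86857469 (-).
Mrpl52: caagatgtcggCTTCCGGttttcccggcag
Mrpl27: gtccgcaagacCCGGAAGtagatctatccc
Rpl19: acttagcgtgaCTTCCGGctacccagagga
Rps6: ttaatctacgcCCGGAAGtaacgcccctct
Rpl19 had 214 CPM in the KO library, against 202 CPM in the WT library. The match thus occurs in genes on either side of the 1.2-fold call, and it is a description of these letters, not a site of binding.

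The rest of the translation machinery was described from lists of named factors. By at least 1.2-fold, 4 of 42 initiation factors were higher and 1 was lower (9.52% and 2.38%). Over all tested genes these shares were 14.3% and 13.1%. The median log2 ratio of the initiation factors was 0.07 and became -0.01 with total counts. Among the 4 higher ones, Eif4e, which binds the cap, had 101 CPM in the KO library, against 80.6 CPM in the WT library. Elongation and termination factors had a median of 0.09, with 11 of 13 above 0 and none called. Eef1a1, which brings transfer RNAs to the ribosome, had 6295 (KO) against 5780 (WT) CPM, and Eef2, which moves the ribosome along, had 1879 (KO) against 1617 (WT) CPM. The 88 tested ribosome biogenesis factors had a median of 0.00. Of these, 4 were higher and 5 were lower by 1.2-fold (4.55% and 5.68%), below the shares of all tested genes. Polr1a, the largest subunit of RNA polymerase I, was among the higher ones, at 46.0 CPM in the KO library, against 36.0 CPM in the WT library.

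Regulators and mitochondrial translation factors had medians below 0. The 25 tested regulators of translation and of pyrimidine-tract messages had a median log2 ratio of -0.11. By at least 1.5-fold, 1 was higher and 2 were lower, beside 6.47% and 7.23% of all tested genes. At 1.2-fold 2 were higher and 8 were lower (8% and 32%), beside 14.3% and 13.1% of all tested genes. The difference from that background was not tested. Ddit4, an inhibitor of mTOR complex 1, had 48 reads in the KO library, against 159 in the WT library and was 4.23-fold lower (3.05 to 5.97). Eif2ak2, the kinase PKR that stops initiation on sensing double-stranded RNA, had 156 CPM in the KO library, against 103 CPM in the WT library, a ratio of 1.51 (1.41 to 1.62). The other gene lower by at least 1.5-fold was Rps6kb2, an S6 kinase, at 1.04 (KO) against 2.15 (WT) CPM. That call rests on 16 reads in the KO library, against 26 in the WT library, 2.08-fold lower (1.07 to 4.14). Larp1, which binds pyrimidine-tract messages, had 281 (KO) against 232 (WT) CPM, and Mtor 30.8 (KO) against 26.7 (WT) CPM. The 37 tested factors of mitochondrial translation had a median of -0.10 with 24 below 0. At 1.2-fold 1 of them was higher and 7 were lower (2.70% and 18.9%), beside the same 14.3% and 13.1%. Only Mrm2, a methyltransferase of mitochondrial ribosomal RNA, was called at 1.5-fold, lower at 4.41 (KO) against 6.71 (WT) CPM.

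Of 12 tested subunits whose symbols fall outside the rule, none was called at 1.5-fold. At 1.2-fold Chchd1 was higher and Rps27rt was lower (8.33% each way), beside 14.3% and 13.1% of all tested genes. Fau, a fusion that yields a small-subunit protein, had 18.1 (KO) against 16.1 (WT) CPM, with an interval of the ratio from 0.929 to 1.35. Rack1, a scaffold on the small subunit, had 152 (KO) against 139 (WT) CPM.

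The spread of the members was set beside other complexes. Nuclear-encoded respiratory chain subunits, which are assembled with the products of mitochondrial ribosomes, had a median log2 ratio of 0.04 over 76 tested genes, with none called at 1.5-fold and 90.8% within 1.2-fold. Proteasome subunits had a median of 0.12 over 37 genes, with 1 higher and 0 lower by that call. Proliferation genes had a median of 0.25 over 20 genes, with 5 higher and 1 lower by at least 1.5-fold. Over all tested genes the call took 6.47% as higher and 7.23% as lower. Among the 5 was Top2a, an enzyme that untangles DNA, at 54.2 CPM in the KO library, against 34.4 CPM in the WT library. The part of the difference in proliferation genes in the ribosomal results was not tested.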

How the data were processed

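Per the file headers, the deposited table gives raw counts of reads by gene symbol and library. The submitters' processing notes name HISAT2 and the mouse build GRCm38. Not given in the sources used here were the counter, annotation, strand setting and handling of reads with several matches, and so reads can fall on a copy, an overlapping or an antisense gene. Every row had a gene name.

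Effective library sizes came from TMM (edgeR 4.0.16, R 4.3.3). Ratios of CPM carry exact Clopper-Pearson 95% intervals of the split of reads (scipy 1.17.1), and log2 ratios used 0.5 added CPM. PCR reads without molecular identifiers are not independent molecules. A count of 3 is 0.194 CPM in the KO library and 0.248 CPM in the WT library. With no replicates no test was made. The calculation was tested on simulated data. Alternatives were total counts, DESeq2 1.42.0 size factors or TMM without the members, other filters, folds and added CPM, means, copies added, and Rpl29 left out.

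Members, lists, alternatives and the naming rule were chosen with earlier results of these data known. The rule named members called at 1.5-fold, the 5 highest and 5 lowest of each set and the 3 most abundant per kilobase among those averaging 10 CPM or more, related pairs, members with work outside the ribosome, and called list genes averaging 5 CPM or more. A few genes named by it are left out here. Others were named after their values were seen, and the split by origin was written after the counts had been seen.

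Positions, lengths, coding sequences and pseudogenes came from GENCODE M21, with 1 transcript per gene by annotation rank, so a level per kilobase depends on that choice. All 160 symbols matched, and Rpl32l, Rpl6l and Rps4l are annotated there as pseudogenes. Copies were pseudogene transcripts matching at least 50% of a coding sequence at 80% identity or more (blastn 2.17.0, best hit), or named after the member.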

Additional observations from a re-analysis of the deposited data

How the results depend on the processing

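No paired analysis was possible because there was 1 library per genotype, and for the same reason no replicate could be left out. Of 348 recomputed values 302 stayed within counting error or 1.5 times the count and 46 moved further. The sign changed in 15 of the 348, all for values near 0, among them both set medians, Rps15 and Rplp0 with total counts. No gene called at 1.5-fold changed sign. With total counts the median log2 ratios were -0.0454 (cytosolic), -0.0442 (mitochondrial), -0.0788 (cytosolic with copies), -0.0062 (initiation), 0.0225 (elongation), -0.182 (regulators), -0.0663 (biogenesis) and -0.172 (mitochondrial translation). From a mean of 10 CPM upward they were 0.0117 (cytosolic), 0.107 (elongation), -0.0619 (regulators) and -0.0577 (mitochondrial translation), and 412 genes were called higher and 223 lower. As a mean, the cytosolic value was 0.0718 and its difference from the mitochondrial mean 0.0303, and with copies the median was -0.00804 and the difference -0.0335. In genes with at least 80% unique windows, a setting chosen after seeing the data, the cytosolic median was 0.00053 over 4 genes, with 0 called either way. Cytosolic calls were 2 higher and 2 lower without a filter, 3 higher at 1.2-fold, 0 higher without Rpl29, 0 lower at 2-fold and 0 lower with copies. Mitochondrial calls at 1.2-fold were 7 higher and 4 lower. All tested genes gave 1793 higher and 1631 lower at 1.2-fold, and 323 and 597 at 2-fold. With copies, the cytosolic share of reads was 1.44% in the KO library, against 1.51% in the WT library. The causes were not tested. Members with few reads, such as Rps28, could not show a 1.5-fold difference at this depth.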
